A study of Schizosaccharomyces pombe with 12 samples.

Results

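The early response of fission yeast, Schizosaccharomyces pombe, to heavy water was followed by comparing 4 samples of cells kept for 5 h in D2O with 4 samples of untreated cells in H2O. These 8 of the 12 samples in the series were chosen by their titles, and all 5105 listed protein-coding genes were taken, of which 5089 had enough reads to be tested and 16 did not. The 5 h group was wild-type cells in YES medium (yeast extract and glucose with adenine, uracil and leucine) made with 100% D2O. The control group was the same strain in YES made with H2O. The cells of both groups carried no selection marker and were in exponential phase, and hot phenol was used to purify their total RNA. The series also holds 4 samples kept for 24 h in D2O, which entered the statistical model but are not described. The labels call the 4 samples of a group independent, and no source used here says more about separate cultures, so the p-values measure the spread between these samples. An H2O culture of matched time was not analysed here, so the time in D2O cannot be told apart from the transfer and the time in culture.

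D2O is water whose hydrogen is the heavier isotope deuterium. It makes stronger hydrogen bonds than H2O, stabilises many folded proteins and microtubules, and slows reactions in which a bond to hydrogen is broken. In fission yeast, stress signals reach the genome mainly through the MAP kinase Sty1 and its transcription factor Atf1, through Pap1, which responds to peroxide and electrophiles, and through the heat shock factor Hsf1. Fast growth in rich medium is carried by abundant messages for ribosomes, translation factors and glycolysis.

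The 8 samples were sequenced to nearly the same depth, with 26775612 to 27166349 counts at 5 h and 26971908 to 27041947 in the controls. Protein-coding genes held 88.8% to 89.0% of the counts at 5 h and 89.1% to 89.2% in the controls. Levels are given as CPM (read counts scaled to a common library size with TMM factors, which are set from the bulk of the genes), and 3 counts corresponded to 0.105 to 0.106 CPM at 5 h and 0.118 to 0.126 CPM in the controls. A gene was called higher or lower at an adjusted p under 0.05 (edgeR quasi-likelihood F test, Benjamini-Hochberg over all 6683 features tested), and "rose" and "fell" are used only of such genes. A dagger (†) at its first mention marks a gene that overlaps another listed feature on either strand, so that both may have been given the same reads.

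Most of the transcriptome shifted by 5 h, and most shifts were small. Of the protein-coding genes tested, 78.5% (3993) were called, 39.2% (1994) higher and 39.3% (1999) lower, and 1096 were not called. The called genes moved by a median of 0.44 on the log2 scale in either direction, and 2575 of them (64.5%) moved by less than 1.5-fold. In 394 called genes the 5 h and control samples overlapped. A change of at least 2-fold was reached by 10.2% of the genes tested (517), 361 of them higher (7.09%) and 156 lower (3.07%). The excess of rises grew with size, with 122 genes at least 4-fold higher against 16 lower, and 55 at least 8-fold higher against 1 lower. That 1 gene was mug114†, a gene of low level at 1.49 against 12.8 CPM (log2 fold change -3.11, adjusted p 4.99e-07), named after its value was seen. The split depends on scaling: with library sizes alone, 54.7% of genes were higher and 24.2% lower, and the at least 2-fold shares were 9.84% higher and 1.53% lower. The median log2 fold change of all protein-coding genes was -0.00 with TMM scaling and 0.20 with library sizes, and the values that follow are from TMM scaling. Functions are described through 53 gene lists, each by how many tested members were called and by its median, beside the shares just given for all genes. As in any bulk RNA measurement, fewer cells expressing a gene and less RNA per cell cannot be told apart.

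The direction of the larger changes went with the level of the gene. The genes were divided into 5 groups of equal size by their level per length (CPM per kilobase, as the mean over the 8 samples). In the lowest group 15.2% of genes (155) were at least 2-fold higher and 2.06% (21) at least 2-fold lower. In the highest group 7.17% (73) were higher and 7.96% (81) lower. The genes that rose at least 2-fold had a median level of 38.6 CPM per kilobase at 5 h and 13.4 in the controls. Those that fell at least 2-fold had a median of 49.3 at 5 h and 128.9 in the controls, beside 38.7 at 5 h and 37.8 in the controls for all genes tested. Both sets were chosen by their change, so the gap between their 5 h and control medians follows in part from the choice. The 100 protein-coding genes with the most control counts held 26.95% of protein-coding counts at 5 h, against 32.3% in the controls. They were chosen by their control counts, so part of this difference may come from the choice.

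**Figure D1:**
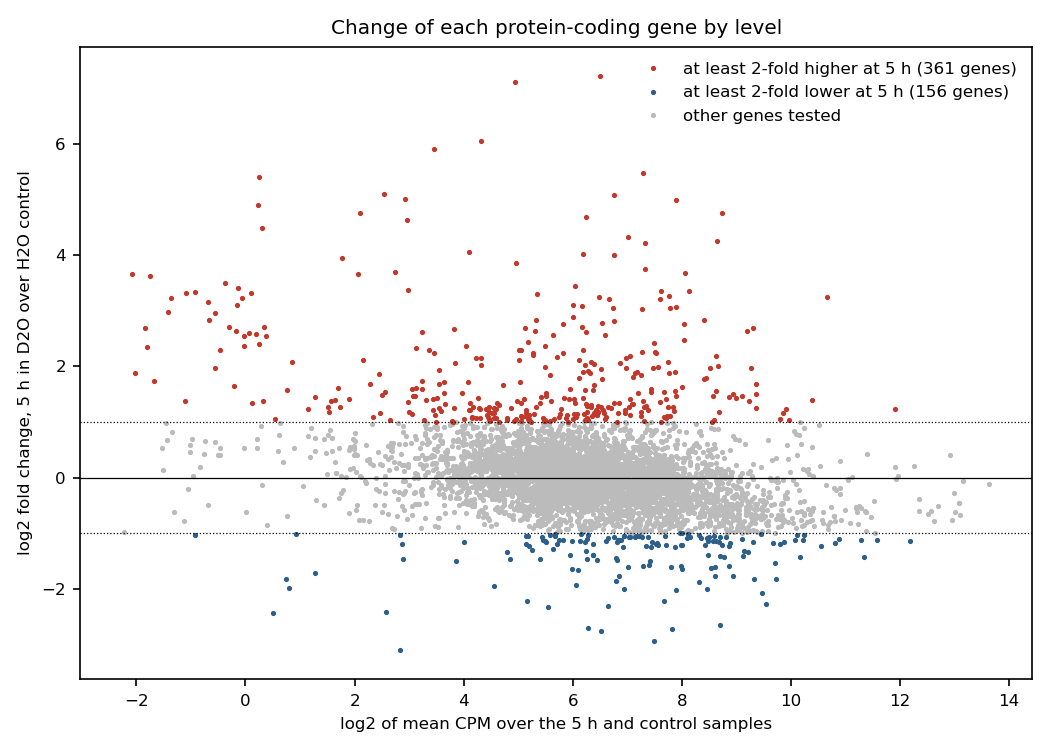
Log2 fold change (5 h in D2O over H2O control) of each of the 5089 protein-coding genes tested, against the log2 of its mean CPM over the 8 samples; dotted lines mark 2-fold. Points above the upper line (361 genes) reach further from zero than those below the lower line (156 genes), and at the right edge most points lie below zero.

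The largest rises were taken among called genes whose groups did not overlap and whose log2 CPM averaged at least 3. Separation of the groups was thus a condition of the choice. These rises were in genes for heme uptake, metal binding, peroxide repair and glutathione conjugation. Shu1, the heme receptor at the cell surface, had 205, 179, 139.9 and 195 CPM at 5 h, against 0.989, 1.57, 1.26 and 0.946 CPM in the controls. No 5 h sample came near any control, and the log2 fold change was 7.23 ± 0.16 (SE, adjusted p 4.38e-14). Zym1, a metallothionein that binds zinc, had 291, 298, 308 and 333 CPM at 5 h, against 6.01, 9.04, 6.57 and 5.79 CPM in the controls. Its groups were likewise far apart (log2 fold change 5.49 ± 0.12, adjusted p 4.38e-14). The catechol O-methyltransferase gene cmt2†, which overlaps a non-coding RNA, had 207, 221, 218 and 195 CPM at 5 h, against 4.94, 8.8, 6.48 and 4.41 CPM in the controls and a log2 fold change of 5.09 ± 0.15 (adjusted p 6.02e-13). The second enolase gene, eno102†, which overlaps an antisense feature, had 480.3, 463, 461 and 438 CPM at 5 h, against 14.5, 15.05, 14.4 and 13.6 CPM in the controls. This minor form of the glycolytic enzyme showed little spread in either group (log2 fold change 4.999 ± 0.061, adjusted p 1.67e-16).

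Next in size came lsd90, with 657, 809, 905 and 934 CPM at 5 h, against 32.1, 31.9, 31.2 and 26.2 CPM in the controls. Its spread at 5 h was wide beside that of its neighbours in rank, and all 5 h samples were still far above the controls (log2 fold change 4.77 ± 0.12, adjusted p 1.28e-13). Hsp3102†, a glyoxalase III of the DJ-1 family that detoxifies methylglyoxal, had 139, 148, 146 and 151 CPM at 5 h, against 6.14, 5.97, 4.84 and 5.71 CPM in the controls (log2 fold change 4.68 ± 0.060, adjusted p 1.67e-16). Its feature overlaps dgc1† and antisense features. Sulfiredoxin, srx1†, the enzyme that restores overoxidised peroxiredoxin, had 236, 241, 242 and 265 CPM at 5 h, against 10.2, 12.7, 13.8 and 11.98 CPM in the controls (log2 fold change 4.34 ± 0.083, adjusted p 7.74e-15). It overlaps the kinase gene mph1† and a non-coding RNA, and mph1 itself had a log2 fold change of only 0.34. Glutathione S-transferase gst2 had 752, 802, 783 and 701 CPM at 5 h, against 38.02, 41.1, 43.1 and 36.3 CPM in the controls. It overlaps no listed feature, and its log2 fold change was 4.26 ± 0.071 (adjusted p 2.57e-15). The other rises among the 12 largest were SPAC637.03 (4.23 ± 0.12) and SPCC737.04† (4.02 ± 0.12), both of unknown role, the Con-6 family gene SPAC11D3.01c (4.01 ± 0.11), and SPAC513.02 of the phosphoglycerate mutase family (3.86 ± 0.12, log2 fold change with SE).

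By the same rule the largest falls were smaller and came from genes for uptake, RNA processing and biosynthesis. The thiamine transporter gene thi9† had 42.6, 43.3, 42.02 and 36.3 CPM at 5 h, against 344, 292, 311 and 319 CPM in the controls (log2 fold change -2.95 ± 0.087, adjusted p 6.33e-13), and it overlaps a non-coding RNA. The gene of unknown role SPAC806.11† overlaps the long non-coding RNA prl3 and had a log2 fold change of -2.77 ± 0.077. Zrt1†, the high-affinity zinc importer, had 59.3, 62.9, 61.5 and 52.3 CPM at 5 h, against 436, 373, 383 and 374 CPM in the controls. Its 4 samples at 5 h lay within a narrow band far under the lowest control (log2 fold change -2.73 ± 0.070, adjusted p 1.71e-13). It overlaps sir2†, which had a log2 fold change of -0.28 ± 0.048. Mei2, the RNA-binding protein that starts meiosis, had 21.1, 19.7, 20.4 and 21.4 CPM at 5 h, against 148, 134, 123 and 132 CPM in the controls (log2 fold change -2.703 ± 0.056, adjusted p 2.03e-14). The RNA helicase gene dbp2, which acts in ribosome assembly, had 106, 121, 123 and 107 CPM at 5 h, against 710.3, 718, 772 and 664 CPM in the controls (log2 fold change -2.65 ± 0.067, adjusted p 1.46e-13). Both overlap no listed feature.

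Below these, glutamate synthase, glt1, had 260.3, 246, 248 and 265 CPM at 5 h, against 1340.1, 1090.0, 1278 and 1207 CPM in the controls (log2 fold change -2.27 ± 0.065, adjusted p 4.72e-13). The sulfate adenylyltransferase gene sua1†, the entry to sulfate assimilation, had 292, 250.5, 259 and 293 CPM at 5 h, against 1208, 1060.4, 1203 and 1123 CPM in the controls (log2 fold change -2.07 ± 0.065, adjusted p 1.29e-12). The sterol C-5 desaturase erg31 had 34.7, 31.4, 35.2 and 34 CPM at 5 h, against 213, 150.2, 141 and 162 CPM in the controls, with replicate 1 the highest of the controls (log2 fold change -2.300 ± 0.11). The other falls among the 12 largest were pan5 of pantothenate synthesis (-2.33 ± 0.061), the transporter gene mfs3† (-2.22 ± 0.077), the meiotic gene mcp7† (-2.22 ± 0.087) and the transporter gene SPBC887.17† (-2.03 ± 0.096). Each of the 24 genes kept its call when any 1 of the 8 samples was left out. The genes were chosen as large, called and separated changes, so this was to be foreseen and adds no support. The log2 fold change of shu1 then lay between 7.13 and 7.40 and that of thi9 between -2.98 and -2.89.

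**Figure D2:**
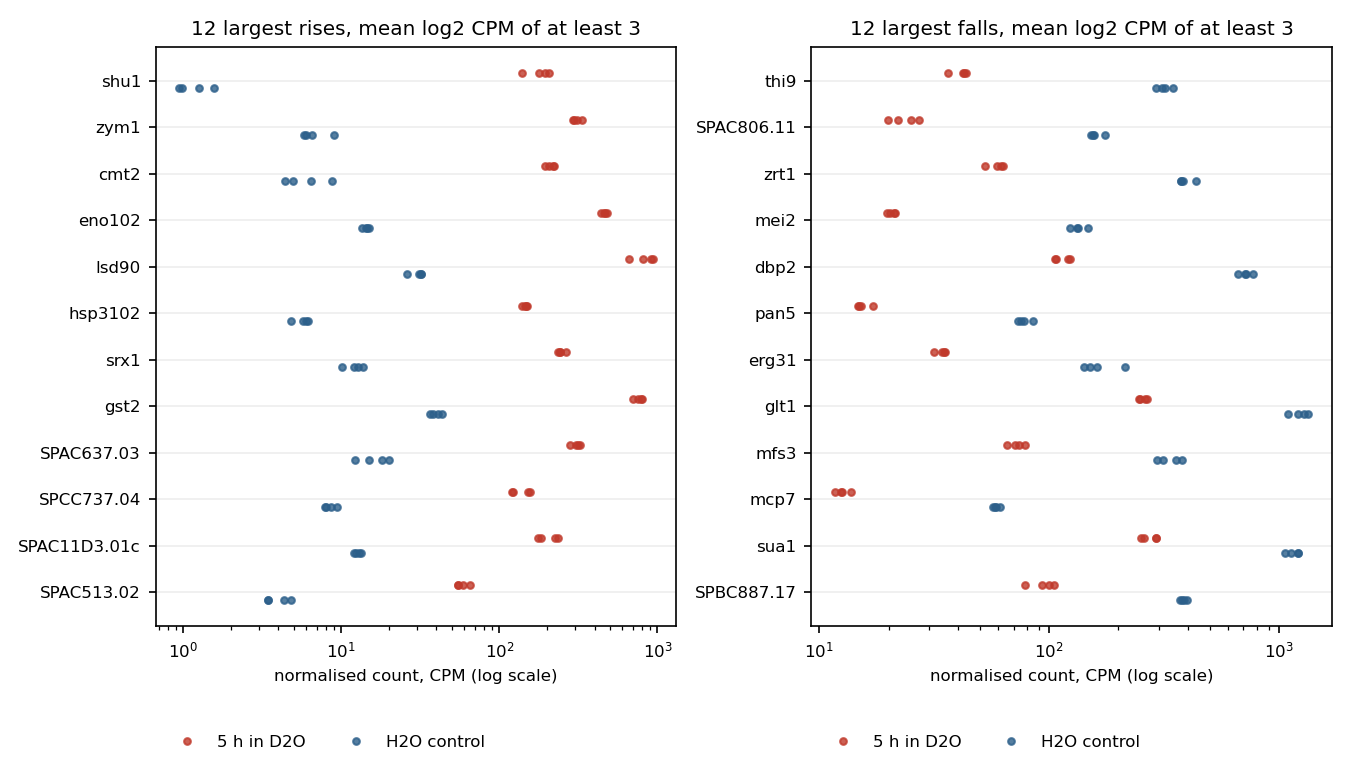
Normalised count (CPM, log scale) in each sample at 5 h in D2O (upper row of each gene) and in the H2O control (lower row) for the 12 largest rises (left) and 12 largest falls (right) among called genes whose groups were separated and whose log2 CPM averaged at least 3. The rises span wider gaps, as for shu1 (139.9 to 205 CPM at 5 h, against 0.946 to 1.57 CPM in the controls), than the falls, as for thi9 (36.3 to 43.3 CPM at 5 h, against 292 to 344 CPM in the controls).

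Most genes of peroxide and redox defence rose, by very unequal amounts. Of 26 members tested, 16 were higher, 4 lower and 6 not called (19 higher and 2 lower with library sizes), beside 39.2% higher and 39.3% lower among all genes, and 11 were at least 2-fold higher. The median log2 fold change was 0.41, beside -0.00 for all genes. Besides srx1 and gst2, the NAD(P)H quinone dehydrogenase gene obr1†, a classical Pap1 target, had 2865, 2888, 3053 and 2987 CPM at 5 h, against 289, 308, 339 and 304 CPM in the controls (log2 fold change 3.25 ± 0.059, adjusted p 5.22e-15). The main peroxiredoxin, tpx1†, which both removes peroxide and passes its signal to Pap1 and Sty1, had 1911, 1945, 1995 and 1954 CPM at 5 h, against 813, 647, 750.1 and 752 CPM in the controls (log2 fold change 1.398 ± 0.060, adjusted p 4.05e-11). The thioredoxin that reduces it, trx1†, had a log2 fold change of 1.44, glutathione peroxidase gpx1† of 1.88, glutathione S-transferases gst3† and gst1† of 1.91 and 1.49, and pap1 itself of 1.01. The changes did not cover the whole system. Catalase, ctt1, reached only 0.37 ± 0.099 and its groups overlapped, glutathione reductase pgr1 was not called at 0.06, superoxide dismutase sod1 was not called at -0.38, and the mitochondrial thioredoxin trx2† and the glutaredoxin grx2† fell (log2 fold changes -0.58 ± 0.059 and -0.83 ± 0.092). The list held 1.24 ± 0.028% of protein-coding counts at 5 h, against 0.450 ± 0.0063% in the controls (SD, n = 4 each).

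Cytosolic chaperone genes rose more often than they fell. Of 19 members, 15 were higher and 4 lower, with 6 at least 2-fold higher and a median log2 fold change of 0.57. The small heat shock protein hsp16, which holds unfolded proteins, had 178, 184, 190.5 and 183 CPM at 5 h, against 17.3, 23.4, 20.1 and 18.1 CPM in the controls (log2 fold change 3.22 ± 0.086, adjusted p 2.49e-13). The inducible Hsp70 gene ssa1† had 617, 569.9, 583 and 608 CPM at 5 h, against 92.1, 78.7, 83.1 and 79.4 CPM in the controls (log2 fold change 2.83 ± 0.075, adjusted p 2.36e-13), and the disaggregase gene hsp104 had 552, 562, 614 and 594 CPM at 5 h, against 166, 140.2, 156 and 128 CPM in the controls (log2 fold change 1.98 ± 0.077, adjusted p 1.28e-11). In all of these the groups were well apart. The stress protein hsp9† rose by 2.69 ± 0.12 on the log2 scale and the J-domain gene psi1 by 1.63. The highly read ssa2† and hsp90 had 8794 ± 584 against 6592 ± 489.6 CPM and 5259 ± 192 against 4534 ± 229.6 CPM at 5 h against control, with log2 fold changes of 0.42 ± 0.063 and 0.21 ± 0.054, and hsf1†, which drives these genes, had 0.57 ± 0.070. Within the Hsp70 family the ribosome-bound forms sks2 and ssz1, which fold new chains, fell, with log2 fold changes of -0.597 ± 0.072 and -0.95 ± 0.051. In the mitochondrion the Hsp100 gene hsp78 rose (2.01 ± 0.055), while mdj1 moved by 0.13 ± 0.032 and the chaperonin mcp60† was not called at -0.04 ± 0.081 (0.16 with library-size scaling). Among 15 genes of folding in the endoplasmic reticulum, 8 were higher and 3 lower (12 and 1 with library sizes) and none reached 2-fold; ero11†, an oxidase for disulfide bonds, and the calnexin gene cnx1† led them with 0.85 ± 0.049 and 0.604 ± 0.046, and ire1†, the sensor of unfolded protein there, was not called at 0.07 ± 0.037.

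The genes of the stress MAP kinase pathway went both ways, in proportions that depend on the scaling. Of 23 members tested, 8 were higher, 6 lower and 9 not called with a median of -0.00, and with library-size scaling 14 were higher and 3 lower with a median of 0.20. The transcription factor gene atf1† had 281, 300.1, 309.6 and 323 CPM at 5 h, against 140.4, 98.4, 108 and 106 CPM in the controls (log2 fold change 1.42 ± 0.092, adjusted p 3.64e-09). The phosphatase genes pyp1 and ptc1, which switch Sty1 off, rose by 1.01 ± 0.060 and 0.89 ± 0.085, and the MAP kinase kinase gene wis1 fell (-0.87 ± 0.058). The gene sty1† itself had 173 ± 4.54 against 196 ± 2.99 CPM at 5 h against control, a log2 fold change of -0.18 ± 0.039 that turns to 0.02 with library-size scaling. The osmotic protectant genes of trehalose and glycerol metabolism had 7 of 11 higher, 2 lower and 3 at least 2-fold higher. Trehalose-6-phosphate synthase, tps1†, had 503, 559.6, 551 and 493 CPM at 5 h, against 160.4, 151, 162 and 141 CPM in the controls (log2 fold change 1.78 ± 0.063, adjusted p 4.68e-12), and neutral trehalase, ntp1†, which breaks trehalose down, had 335, 379, 394 and 379 CPM at 5 h, against 109, 98.1, 103 and 88.9 CPM in the controls (log2 fold change 1.897 ± 0.070, adjusted p 7.48e-12). Synthesis and breakdown genes rose together. The glycerol-3-phosphate dehydrogenase gene gpd1†, the step to glycerol under osmotic stress, rose by 0.78 ± 0.093.

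Metal transport genes moved in both directions. For iron, 10 of 14 genes listed under iron and heme uptake were higher and 3 lower. At least 2-fold higher were 7 of them, and the list median was 0.82. Beside shu1, the ferric reductase gene frp2 had 67.3, 70.6, 67.3 and 77.2 CPM at 5 h, against 9.35, 10.4, 11.2 and 8.63 CPM in the controls (log2 fold change 2.84 ± 0.083, adjusted p 5.88e-13). The siderophore transporter gene str3 had 332, 309, 234 and 335 CPM at 5 h, against 62.6, 91.6, 79.3 and 69.8 CPM in the controls (log2 fold change 1.996 ± 0.13, adjusted p 3.05e-09). The siderophore synthesis genes sib1 and sib2† had log2 fold changes of 1.501 and 1.34. The gene php4, whose product represses iron-using genes when iron is scarce, had 104, 107, 106 and 102 CPM at 5 h, against 53.7, 50.7, 49.4 and 50.99 CPM in the controls (log2 fold change 1.03 ± 0.037, adjusted p 4.53e-12). Not all uptake genes rose. The reductive uptake gene fio1 was not called (0.04 ± 0.072), and the siderophore transporter str2† fell (log2 fold change -0.53 ± 0.049). The list also held genes of other roles that fell, the repressor gene fep1 (-0.49 ± 0.046) and the vacuolar iron importer gene pcl1† (-1.096 ± 0.051).

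For zinc, the list of 8 genes split, with 2 higher, 4 lower and 2 not called (3 higher and 3 lower with library sizes, and a median of -0.15, 0.05 with library sizes), and it held the second largest rise and the third largest fall of the 24 named above. The metallothionein zym1 rose while the importer zrt1 fell. The repressor gene loz1†, which shuts zrt1 down when zinc is ample, was not called (120.3 ± 7.97 against 109 ± 12.5 CPM at 5 h against control, log2 fold change 0.15 ± 0.071). The alcohol dehydrogenase adh4, a Loz1 target, fell (log2 fold change -0.77 ± 0.064). For copper, 7 of 9 genes were higher and 1 lower (8 and 0 with library sizes). The transporter gene ctr4 had 305, 329, 106 and 382 CPM at 5 h, against 118, 105, 114 and 98.2 CPM in the controls. Replicate 3 at 5 h lay within the range of the controls and the other 5 h samples far above it, and the log2 fold change of 1.37 ± 0.31 (adjusted p 0.000988) became 1.64 without it. The vacuolar copper exporter ctr6 had 40.9, 50.1, 38.7 and 42.1 CPM at 5 h, against 21.7, 20.8, 23.9 and 21.1 CPM in the controls, without such a stray value (log2 fold change 0.97 ± 0.080, adjusted p 4.41e-08). The copper sensor gene cuf1 had -0.23 ± 0.064 (-0.03 and not called with library-size scaling). For thiamine, 5 of 8 genes were lower and 1 higher (4 and 3 with library sizes). The member that rose was tnr3, the thiamine pyrophosphokinase gene (0.23). Of the others, thi9, the acid phosphatase gene pho4† (-1.47 ± 0.056) and thi4† (-0.78 ± 0.041) fell, while nmt1†, the thiamine-repressed gene most used as a promoter, was not called (21.7 ± 0.921 against 19.3 ± 2.32 CPM at 5 h against control). For phosphate, 3 of 8 genes were higher and 3 lower (4 and 2 with library sizes). The acid phosphatase pho1 had 1040.5, 923, 945 and 1085 CPM at 5 h, against 360.4, 289, 286 and 301 CPM in the controls (log2 fold change 1.69 ± 0.076, adjusted p 5.95e-11), and the phosphate importer gene pho84 fell (-0.36 ± 0.077).

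The lists of sugar metabolism held genes that moved in both directions. Of 13 glycolysis genes 8 were lower and 3 higher, and eno102 stood alone at least 2-fold away. Phosphoglycerate mutase, gpm1†, had 1651, 1897, 2069 and 2307 CPM at 5 h, against 3824, 3899.6, 4430.0 and 3670.4 CPM in the controls (log2 fold change -0.998 ± 0.090, adjusted p 1.28e-07). Aldolase, fba1, and triose phosphate isomerase, tpi1, fell by log2 fold changes of -0.67 ± 0.062 and -0.78 ± 0.096, and the main enolase eno101 by -0.28. In fermentation 6 of 10 genes were higher and 3 lower, the lower ones being adh4 given above, adh1† and the aldehyde dehydrogenase gene atd1† (-0.89). Pyruvate decarboxylase pdc102 had 12.2, 12.2, 13.4 and 11.97 CPM at 5 h, against 1.03, 0.864, 1.18 and 0.749 CPM in the controls (log2 fold change 3.702 ± 0.11), and alcohol dehydrogenase adh8 had 107, 119, 121 and 114 CPM at 5 h, against 11.9, 14.4, 15.4 and 12.2 CPM in the controls (log2 fold change 3.099 ± 0.073). The main alcohol dehydrogenase, adh1, which shares its reads with antisense features, had 7301 ± 129 against 9976 ± 339.8 CPM at 5 h against control (log2 fold change -0.45 ± 0.053), and pdc101 was not called (-0.07). The 8 hexose transporter genes split, with 3 higher and 3 lower. The gluconate symporter gene ght3 and ght7, both of low level in the controls, rose by 2.15 ± 0.073 and 2.12 ± 0.15. Ght5, the high-affinity glucose transporter, had 133, 127, 126 and 119 CPM at 5 h, against 509, 336, 318 and 355 CPM in the controls (log2 fold change -1.59 ± 0.12, adjusted p 1.62e-08), and ght8 had 484, 435, 417 and 383 CPM at 5 h, against 1491, 1180.0, 1125 and 1186 CPM in the controls (log2 fold change -1.54 ± 0.093, adjusted p 1.62e-09). In both, replicate 1 was the highest control and every 5 h sample lay under every control.

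Of 9 genes listed under glucose-repressed sugar use, 3 were higher, none lower and 6 not called. With library sizes 7 were higher and none lower, beside 39.2% (TMM) and 54.7% (library sizes) higher among all genes. The alpha-galactosidase gene mel1 is described with the near-silent genes, and the hexitol dehydrogenase gene tms1† had 161, 190.0, 214 and 191 CPM at 5 h, against 23.03, 25.5, 34.9 and 23.5 CPM in the controls (log2 fold change 2.82 ± 0.11, adjusted p 2.00e-11). The gluconeogenic fbp1†, the standard marker of glucose derepression, was not called (31.5 ± 1.87 against 27.6 ± 6.49 CPM at 5 h against control, log2 fold change 0.19 ± 0.12), nor were its activator gene rst2† (0.06 ± 0.048) and the repressor gene scr1 (0.07 ± 0.14). In the pentose phosphate pathway, which supplies NADPH, zwf1†, its first enzyme, rose (0.88 ± 0.055). In the tricarboxylic acid cycle 8 of 14 genes were lower and 4 higher (7 and 6 with library sizes). The 4 at least 2-fold lower were the succinate dehydrogenase genes sdh1 (-1.78 ± 0.053), sdh2 (-1.87 ± 0.058) and sdh3†, and aconitase, aco1 (-1.16 ± 0.060). The nuclear-encoded respiratory chain had 13 of 35 higher and 9 lower (20 and 8 with library sizes, median 0.03). Its ATP synthase subunits atp14 and atp5 rose (0.63 ± 0.089 and 0.61 ± 0.062), and the members at least 2-fold lower were the succinate dehydrogenase genes and cytochrome c, cyc1† (-1.42 ± 0.068).

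The machinery of translation fell almost without exception. All 55 small-subunit and 81 of 83 large-subunit ribosomal protein genes were lower, with none higher, medians of -0.72 and -0.74, and 4 and 9 genes at least 2-fold lower. Together the ribosomal proteins held 8.57%, 8.47%, 8.61% and 8.29% of protein-coding counts at 5 h, against 11.4%, 11.8%, 12.99% and 11.5% in the controls. Every 5 h sample was below every control. All 10 genes listed for RNA polymerase I, which makes ribosomal RNA, were lower (median -0.87). The largest subunit, nuc1, had 510.5, 495, 493 and 508 CPM at 5 h, against 1153, 1109, 1158 and 1132 CPM in the controls (log2 fold change -1.18 ± 0.039, adjusted p 2.07e-12). Ribosome biogenesis factors had 101 of 103 lower, 14 of them at least 2-fold. After dbp2, nucleolin, gar2†, which acts on the early pre-ribosome, had 271, 313, 315 and 225 CPM at 5 h, against 1032, 971, 1063 and 903 CPM in the controls (log2 fold change -1.82 ± 0.11, adjusted p 1.66e-09), and the helicase gene dbp3† had a log2 fold change of -1.65 ± 0.049. All 19 aminoacyl-tRNA synthetase genes were lower (median -0.65), as were 32 of 34 translation factors (median -0.61), led by tif213, a subunit of the initiation factor that brings the first tRNA (-1.15 ± 0.070). The exception that rose was gcn2†, the kinase that inhibits that factor (0.33 ± 0.040). With library-size scaling these lists stayed lower, with medians from -0.40 to -0.67. Mitochondrial ribosomal proteins moved less: 26 of 50 were lower and 6 higher with a median of -0.18, and with library sizes 7 were lower and 14 higher with a median of 0.02. RNA polymerase II subunits had 10 of 12 lower and none higher (median -0.33), and with library sizes 5 lower and none higher (median -0.13).

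**Figure D3:**
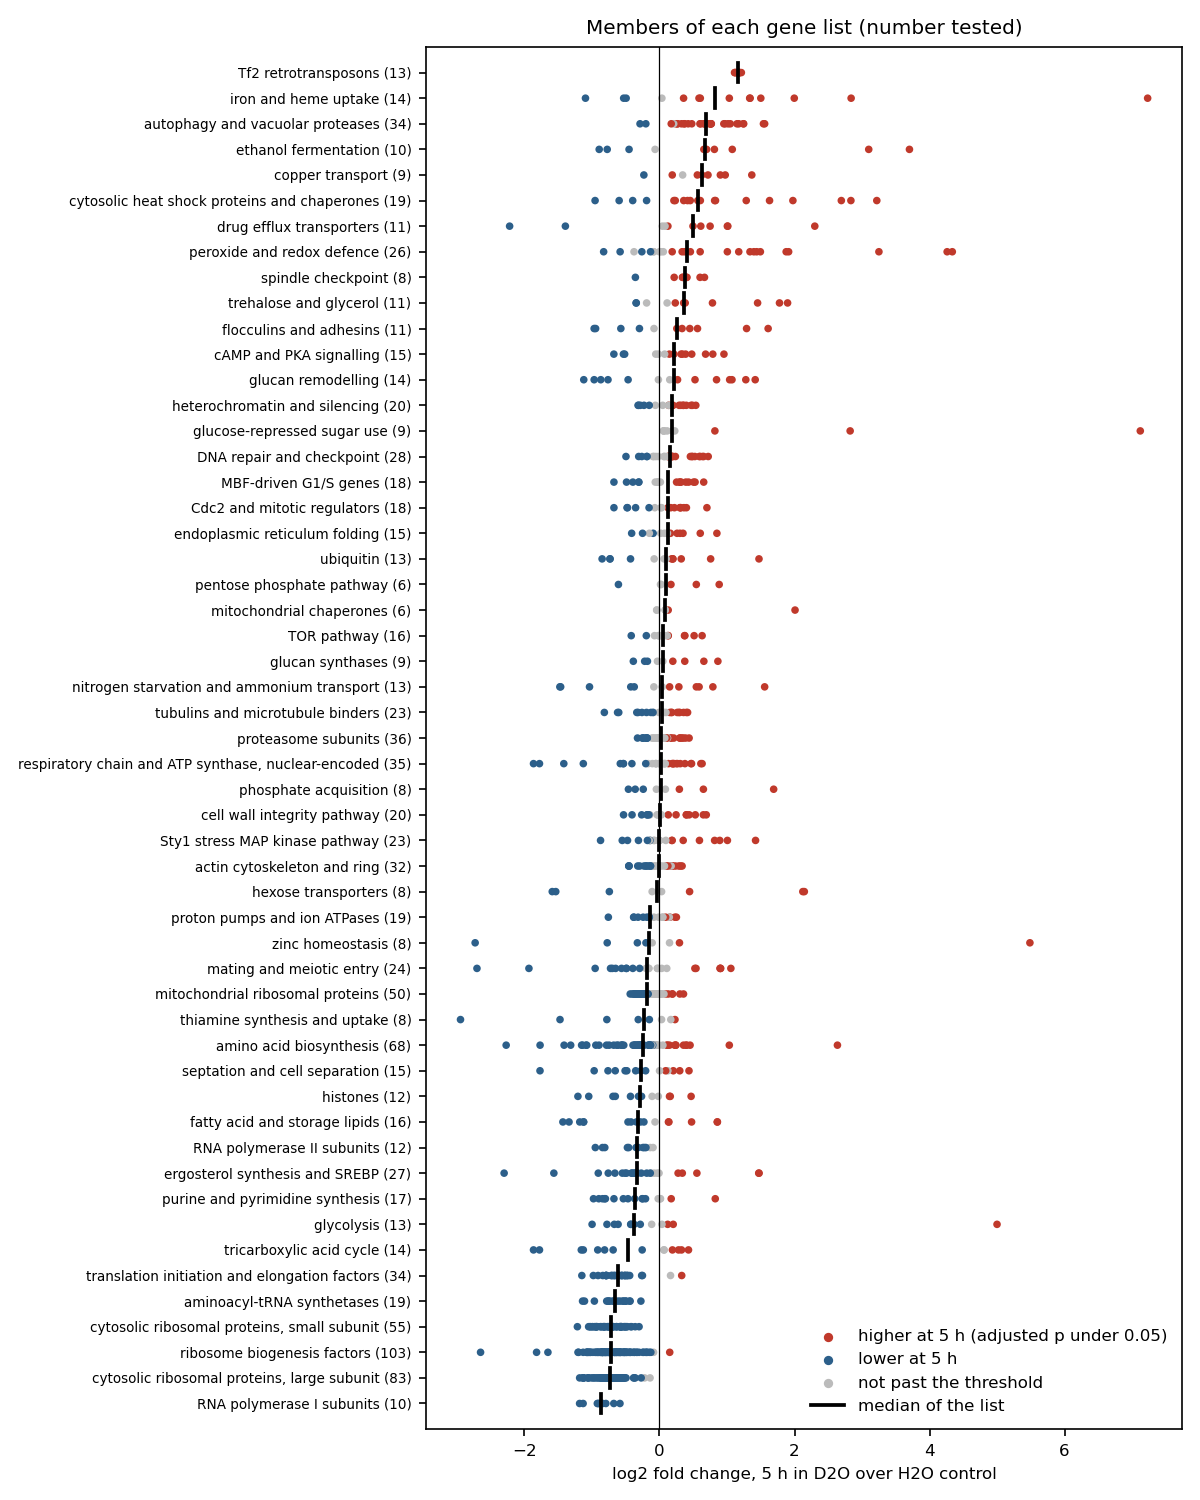
Log2 fold change (5 h in D2O over H2O control) of every tested member of 53 gene lists, with the number tested in brackets, ordered by the list's median (black bar); red points were higher and blue points lower at an adjusted p under 0.05, and grey points were not past it. The translation lists lie left of zero almost as a whole, while most other lists hold points on both sides.

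The biosynthesis lists held more genes lower than higher. Of 68 amino acid synthesis genes 43 were lower and 12 higher (25 and 21 with library sizes), and 8 were at least 2-fold lower. The nitrogen-assimilating genes were foremost: glutamine synthetase, gln1, had 224, 219.8, 232 and 220.0 CPM at 5 h, against 833, 677, 821 and 717 CPM in the controls (log2 fold change -1.77 ± 0.082, adjusted p 8.50e-11), next to glt1. In contrast the catabolic NAD-dependent glutamate dehydrogenase gene gdh2† had 1043, 949, 886 and 1149 CPM at 5 h, against 165, 160.3, 169 and 154 CPM in the controls (log2 fold change 2.64 ± 0.073, adjusted p 3.65e-13). The branched-chain genes ilv3† and leu2 fell by log2 fold changes of -1.41 ± 0.049 and -1.31, and methionine synthase, met26†, had 2890.1 ± 122 against 6359 ± 478 CPM at 5 h against control (-1.14 ± 0.060). In fatty acid synthesis, the desaturase ole1 had 1403, 1368, 1460.0 and 1379 CPM at 5 h, against 4293, 3553, 3774 and 3497 CPM in the controls (log2 fold change -1.43 ± 0.078, adjusted p 5.40e-10). Acetyl-CoA carboxylase, cut6†, had 1579, 1569.7, 1585 and 1578 CPM at 5 h, against 3534, 3361, 3572 and 3292 CPM in the controls (log2 fold change -1.12 ± 0.045, adjusted p 1.84e-11). The synthase subunits fas1 and fas2† fell with it (-1.12 and -1.18). The storage genes dga1 and are2, which make triacylglycerol and sterol esters, rose (0.86 ± 0.038 and 0.86 ± 0.063). The fatty acid list held 0.999 ± 0.015% of protein-coding counts at 5 h, against 1.74 ± 0.052% in the controls.

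Ergosterol synthesis had 18 of 27 genes lower and 5 higher. Squalene epoxidase, erg1, had 82.5, 86.2, 86.7 and 86.5 CPM at 5 h, against 301, 238, 227 and 245 CPM in the controls (log2 fold change -1.56 ± 0.079, adjusted p 2.23e-10), and the lanosterol demethylase erg11 fell (log2 fold change -0.91 ± 0.063). The sterol-sensing transcription factor gene sre1 rose, with 542, 567, 571 and 567 CPM at 5 h, against 222, 198, 193 and 196 CPM in the controls (log2 fold change 1.47 ± 0.058, adjusted p 1.57e-11). The C-5 desaturase genes moved in opposite directions, since erg31 fell while erg32† had 355, 363, 365 and 315 CPM at 5 h, against 132, 119.9, 123 and 130.2 CPM in the controls (log2 fold change 1.47 ± 0.060, adjusted p 2.21e-11). In nucleotide synthesis 12 of 17 genes were lower and 2 higher (9 and 5 with library sizes), led by ade9† (-0.98 ± 0.041), while ade7† rose (0.83 ± 0.058). The plasma membrane proton pump pma1†, the main consumer of ATP at the cell surface, had 6179, 6302, 6159 and 5002 CPM at 5 h, against 12157, 8832, 9490.1 and 9473 CPM in the controls (log2 fold change -0.76 ± 0.11, adjusted p 1.54e-05). Replicate 1 of the controls was its highest value and replicate 4 its lowest at 5 h, and the groups did not overlap.

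Autophagy genes rose nearly as a whole. Of 34 members, 31 were higher and 2 lower (median 0.69), and 8 were at least 2-fold higher. The vacuolar carboxypeptidase Y gene cpy1 had 5722, 5044, 5092 and 5712 CPM at 5 h, against 2354, 2142, 2277 and 2350.0 CPM in the controls (log2 fold change 1.24 ± 0.054, adjusted p 4.40e-11). It held 0.638% of protein-coding counts at 5 h against 0.234% in the controls, the largest gain in share of any gene. The vacuolar serine protease isp6†, needed for autophagy, had 327, 346, 363 and 362 CPM at 5 h, against 130.1, 112, 123 and 109.9 CPM in the controls (log2 fold change 1.56 ± 0.063, adjusted p 1.93e-11). Among the genes named for autophagy the log2 fold change ran up to 1.25 in atg1802† and 1.17 in the protease gene atg4, with atg8†, whose product coats the forming autophagosome, at 0.76, the ligase genes atg7† and atg5† at 0.75 and 0.69, and the kinase gene atg1† at 0.24. Atg16 and atg17† were the members called lower (-0.29 ± 0.079 and -0.202 ± 0.061), and neither was called with library-size scaling. Genes of nitrogen starvation were mixed. Of 13, 6 were higher and 5 lower, and the ammonium transporter amt1 had 49.4, 47.3, 47.8 and 39.9 CPM at 5 h, against 149, 115, 126 and 123 CPM in the controls (log2 fold change -1.48 ± 0.084, adjusted p 8.40e-10). The starvation-induced genes isp7 and isp4 fell as well (-1.46 ± 0.070 and -1.04 ± 0.058). Proteasome subunits had 11 of 36 higher and 8 lower (26 and 1 with library sizes), none by 2-fold. Polyubiquitin, ubi4, which is made under stress, had 836, 904, 880.5 and 595 CPM at 5 h, against 291, 297, 298 and 272 CPM in the controls (log2 fold change 1.47 ± 0.12, adjusted p 2.75e-08), the segregase gene cdc48 rose (0.76 ± 0.073), and the ubiquitin-ribosomal fusion genes ubi1† and uep1† fell (-0.73 ± 0.060 and -0.85 ± 0.063).

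**Figure D4:**
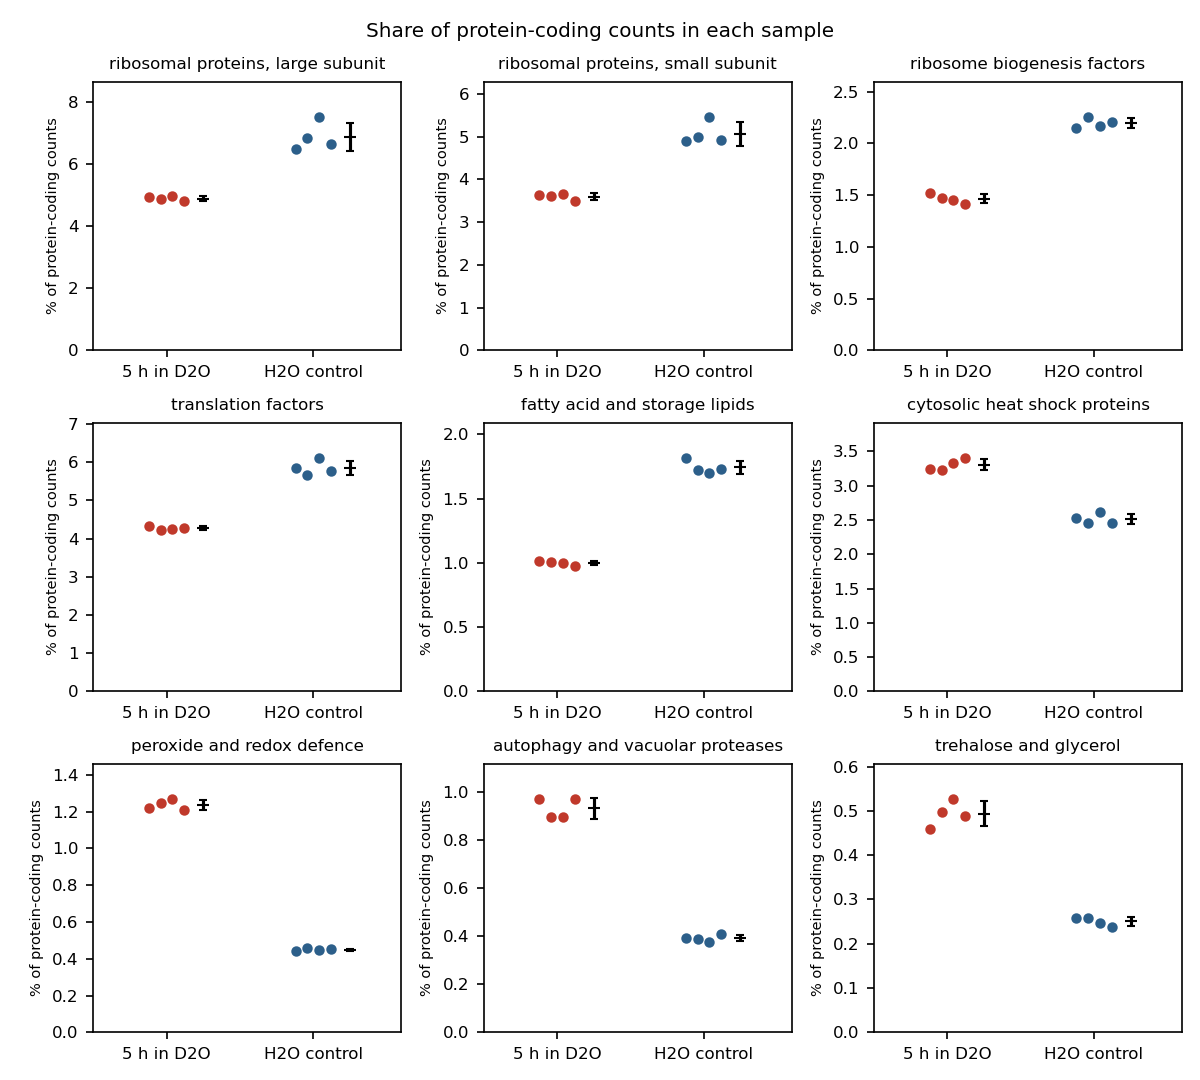
Share of protein-coding counts held by 9 gene lists in each sample, at 5 h in D2O (left in each panel) and in the H2O control (right); points are samples and bars are the mean ± SD (n = 4), with axes from zero. The upper 3 panels and the translation factor and fatty acid panels show all 5 h samples under all controls, and the others show all 5 h samples above all controls.

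In the cell wall, some remodelling genes reached 2-fold and no glucan synthase gene did. Of 14 remodelling genes, 7 were higher and 5 lower, with 4 at least 2-fold higher and 1 lower. The glucanase genes exg3†, bgl2 and agn2 had log2 fold changes of 1.42 ± 0.064, 1.28 ± 0.088 and 1.07 ± 0.042. The gene psu1, a wall protein needed for cell separation, fell (-1.12 ± 0.051). Agn1† and eng1, the glucanases that dissolve the septum, fell (log2 fold changes -0.97 ± 0.071 and -0.76 ± 0.078), and adg1, which is read in the same phase of the cycle, had 45.4, 54.7, 56.6 and 53.5 CPM at 5 h, against 194, 172, 169 and 182 CPM in the controls (log2 fold change -1.77 ± 0.064, adjusted p 5.52e-12). Among 9 glucan synthase genes 4 were higher and 3 lower (6 and 1 with library sizes). The alpha-glucan synthase mok13† and the spore-wall bgs2† rose (0.87 ± 0.044 and 0.66 ± 0.034), while the beta-glucan synthase bgs4 was not called (-0.03 ± 0.065, 0.17 with library sizes). Of 20 cell wall integrity genes, 8 were higher and 6 lower (13 and 2 with library sizes, median 0.01): the MAP kinase kinase kinase gene mkh1 and the kinase gene pmk1† rose by 0.69 ± 0.044 and 0.398 ± 0.045, and rnc1†, which binds the mRNA of the Pmk1 phosphatase, fell (-0.53 ± 0.071).

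The listed cytoskeleton, mitotic, spindle checkpoint and repair genes moved by less than 2-fold, while 2 of 12 histone list genes were at least 2-fold lower. Of 32 actin and ring genes, 10 were higher and 11 lower (19 and 4 with library sizes), none by 2-fold, and act1 had 4122 ± 123 against 3612 ± 133 CPM at 5 h against control (0.19 ± 0.037). The median was -0.01, and 0.19 with library sizes. Of 23 genes of tubulins and microtubule binders, 9 were higher and 9 lower (14 and 4 with library sizes). The tubulin genes nda2 and nda3 fell (-0.82 ± 0.070 and -0.62 ± 0.057), and the gamma-tubulin complex gene alp6 rose (0.42 ± 0.058). Of 18 Cdc2 and mitotic genes, 10 were higher and 5 lower. The kinase gene cdc2† was not called (62.2 ± 1.38 against 60.9 ± 1.38 CPM at 5 h against control), nor was its inhibitor wee1 (-0.07 ± 0.086), while cdc25, which activates Cdc2, rose (0.36 ± 0.052) and mik1† fell (-0.67 ± 0.072). In the spindle checkpoint 7 of 8 genes were higher, mad2† most (0.67 ± 0.064), and bub1 was lower (-0.36 ± 0.047). Of 28 repair genes 16 were higher and 5 lower (21 and 1 with library sizes), none by 2-fold, with rad54 (0.72 ± 0.045) and ctp1† (0.66 ± 0.059) the highest. In the histone list 7 of 12 genes were lower and 3 higher (5 and 4 with library sizes). The GATA factor gene ams2†, which drives histone genes, and the variant histone genes pht1 and cnp1† were the higher ones (0.47, 0.16 and 0.15), and hht1 and hhf3† fell most (-1.21 ± 0.083 and -1.05 ± 0.055).

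Signalling and mating genes were mixed. In the cAMP pathway, which reports glucose, 9 of 15 were higher and 3 lower: both subunits of protein kinase A, pka1 and cgs1, rose (0.79 ± 0.045 and 0.95 ± 0.065), and the receptor and G protein genes git3† and gpa2 fell (-0.52 ± 0.068 and -0.68 ± 0.060). In the TOR pathway 6 of 16 were higher, 2 lower and 8 not called (13 higher and 1 lower with library sizes). The largest rise was that of tor1 (0.63 ± 0.043). Of 24 mating genes 11 were lower and 6 higher with a median of -0.18 (10 lower and 9 higher with a median of 0.02 with library sizes). Beside mei2, the M-factor precursor gene mfm2 had 25.7, 31.3, 32.3 and 21.9 CPM at 5 h, against 112, 114, 97.7 and 101 CPM in the controls (log2 fold change -1.93 ± 0.11, adjusted p 5.57e-10) and its exporter gene mam1† fell (-0.95 ± 0.055), while ste11, which activates these genes, rose (0.54 ± 0.076). Drug efflux genes went to both extremes. Caf5† had 133, 121, 117 and 116 CPM at 5 h, against 25.7, 24, 24.1 and 25.1 CPM in the controls (log2 fold change 2.300 ± 0.060, adjusted p 2.03e-13), whereas mfs1† fell (-1.39 ± 0.055) like mfs3. The 13 Tf2 retrotransposons all rose at least 2-fold, with log2 fold changes from 1.11 to 1.21. They are near-identical copies whose reads may have been divided among them, so they do not count as 13 separate observations. Of 20 heterochromatin and silencing genes 12 were higher and 5 lower (14 and 1 with library sizes), none by 2-fold: the Argonaute gene ago1 rose (0.54 ± 0.048) and swi6 fell (-0.32 ± 0.050).

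A few genes were close to silent in H2O and clearly read after 5 h. In 6 genes every control sample was under 1 CPM and every 5 h sample at or above 10 CPM. No gene showed the reverse. Mel1, which cuts melibiose, had 65.05, 63.8, 61.6 and 54.2 CPM at 5 h, against 0.7003, 0.354, 0.2105 and 0.473 CPM in the controls (log2 fold change 7.12 ± 0.13, adjusted p 7.74e-15). The adducin family gene SPBC1289.14 had 41.7, 34.8, 42.7 and 37.1 CPM at 5 h, against 0.7003, 0.707, 0.716 and 0.236 CPM in the controls (log2 fold change 6.05 ± 0.14). The Con-6 gene SPAC869.09† had 20.01, 19.9, 23.1 and 23.7 CPM at 5 h, against 0.288, 0.55, 0.379 and 0.197 CPM in the controls. Pcm2, which repairs aged aspartates in proteins, had 15.4, 15.9, 14.6 and 13.97 CPM at 5 h, against 0.371, 0.707, 0.7998 and 0.512 CPM in the controls. The other members, SPBPB21E7.02c and fub2†, rose by 5.11 ± 0.14 and 5.01 ± 0.20. The rule chose these genes for their 5 h and control levels, so their changes are a description, and SPAC869.09, pcm2 and mel1 are neighbours on chromosome I.

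Many of the genes that rose lay next to each other. The order of genes was taken from the RefSeq annotation, without coordinates. For the next 2 shares, a neighbour that overlaps the gene was not counted. Of the 361 genes at least 2-fold higher, 128 (35.5%) had a next gene that was also at least 2-fold higher, beside 11.2% of all genes tested. Of the 156 at least 2-fold lower, 31 (19.9%) had such a lower neighbour, beside 5.19% of all genes tested. Runs of adjacent genes were counted whether or not neighbours overlap, as tgd1† and gal10† do. There were 18 runs of 3 or more adjacent genes at least 2-fold higher and 1 such run lower, SPBC36.01c†, SPBC36.02c and mfs3. The longest, of 8 genes on chromosome I, held pdc102, the aldo/keto reductase gene SPAC750.01 and ftm4. Another held ght3, shu1, str3, hhy1† and isp3†, so that the heme receptor and a siderophore transporter stood side by side. On chromosome II, eno102, SPBPB21E7.02c and cmt2 shared a run of 5, pho1, fub2, nrg1 and mug180 a run of 4, and the galactose genes gal7, gal10 and gal1† a run of 5 with tgd1 and SPBPB2B2.14c.

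Many of these runs lay near the ends of chromosomes I and II. Among the outermost 50 protein-coding genes at each of the 4 ends, 87 of 193 tested (45.1%) were at least 2-fold higher and 10 (5.18%) lower. Each of the 4 ends showed it, with 50% and 38% at the ends of chromosome I and 44.7% and 47.9% at those of chromosome II. At both ends of chromosome III the share was 10%. Counted inwards on chromosomes I and II, the share was 65.6% in the outermost 25 genes and 26% in the next 25, and between 5% and 9% in each further step of 25 out to gene 200. Genes at these ends were mostly of low level, and the lowest of the 5 level groups also rose most often elsewhere. Within that lowest group, 57.8% (63 of 109) of the genes at the ends were at least 2-fold higher, against 10.1% (92 of 909) elsewhere. Within the other level groups it was 28.6% (24 of 84) at the ends, against 4.56% elsewhere. The number of genes counted from an end was chosen after the data were seen. Genes near chromosome ends include near-identical copies that may share reads, and the part of this in the count was not tested.

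**Figure D5:**
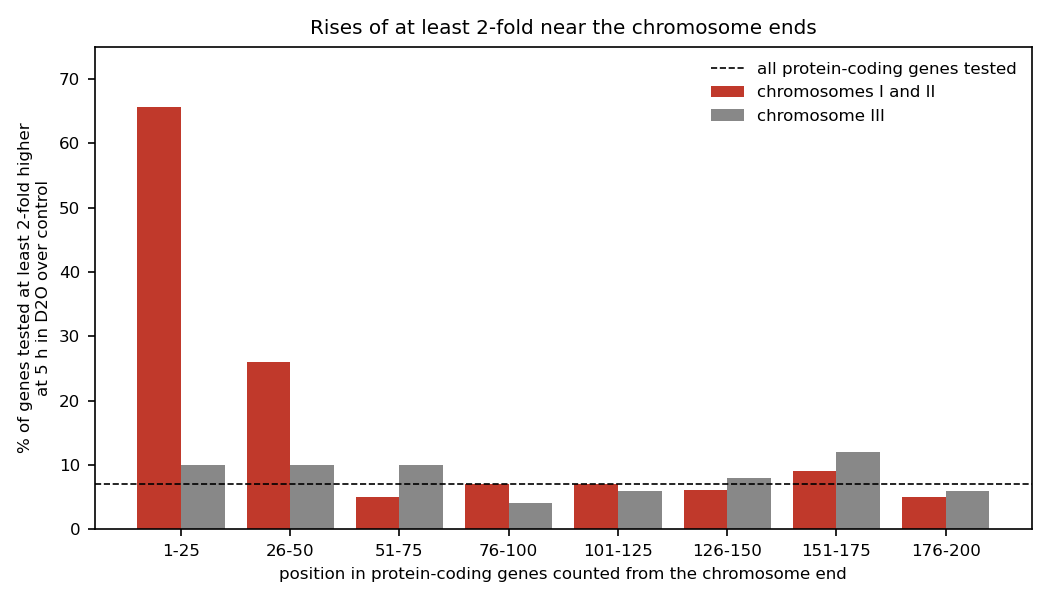
Percent of tested protein-coding genes that were at least 2-fold higher at 5 h in D2O than in the H2O control, in steps of 25 genes counted from the chromosome ends, for chromosomes I and II (red, 4 ends) and III (grey, 2 ends); the dashed line is the share over all protein-coding genes tested (7.09%). The outermost steps of chromosomes I and II reach 65.6% and 26%, and the steps further in lie around the dashed line.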

How the data were processed

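RNA was measured by sequencing in 4 samples at 5 h in D2O and 4 H2O controls, grouped by their titles. Reads were aligned with BWA 0.7.12, per the submitters' processing notes; the counting program, genome build, annotation and strandedness are not given in the sources used here. The authors deposited a count, a length in bases and an RPKM value for each of 7015 features per sample. Per the file headers, the counts are whole reads with no normalisation. The deposited RPKM values can be recomputed from count and length and were not tested.

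Features were matched to RefSeq ASM294v3 (6845, or 97.6%), which was used only for names, classes, order and overlaps. Of the protein-coding genes listed, 2930 overlapped another feature. No genome of the files' build was at hand, so no sequence or coordinate is given, and promoter motifs were not analysed here.

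Counts of all 12 samples were fitted with edgeR 4.0.16 (limma 3.58.1, R 4.3.3), with the group as the only term, TMM factors and filterByExpr at its minimum of 10 counts. Factors were 1.04 to 1.06 at 5 h and 0.879 to 0.944 in the controls, and the biological coefficient of variation was 8.47%. P-values were adjusted over all 6683 features. SE is the absolute log2 fold change over the square root of F. The fit was tested on simulated data in which few features changed. Most genes were called in the real data, so that test does not bear on the choice of scaling. SD and SE hold the spread between samples. Replicates differed by more than sampling noise (chi-square per degree of freedom at least 8.38, Spearman 0.994 to 0.998), so none was taken as a copy. The labels do not say whether the replicate numbers pair the samples, and same-numbered samples did not deviate together.

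Named were the 12 largest rises and falls (called, groups not overlapping, log2 CPM averaging at least 3), up to 3 rises, 3 falls and preset key members per list, the 5 largest gains and losses of share, and genes under 1 CPM in one group and at least 10 CPM in the other. Other list members were named after their values were seen. The members and lists were chosen with earlier results of these data known. Of 813 listed symbols 28 were left out because they matched no gene or, for sod2, nde1 and abc1, matched 2. A further 19 list members were removed because the symbol names another gene. Alternatives were other scaling, filters, DESeq2 1.42.0, 8 samples only, a replicate block, protein-coding or non-overlapping features only, and each sample left out.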

Additional observations from a re-analysis of the deposited data

Results flagged for a closer look

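In 15 of 186 groups of 4 samples examined, 1 sample stood apart from the other 3 by Dixon's test at the 95% level, and chance gives about 1 in 20. Of these, 5 were single genes. In CPM, lsd90 had a lowest control of 26.2, zrt1† a highest control of 436, pma1† a lowest 5 h sample of 5002, SPBC1289.14 a lowest control of 0.236 and fub2† a highest 5 h sample of 16.6. In each of these genes the 5 h and control samples still did not overlap. For all but pma1 this was a condition of a rule that chose them.

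The others were shares of protein-coding counts. Among the 5 h samples, the lowest share stood apart for copper transport (0.0729%, the sample in which ctr4 was low), histones (0.355%), proton pumps and ion ATPases (0.854%) and septation (0.284%), and the highest for the respiratory chain (0.814%). Among the controls, the lowest stood apart for Cdc2 and mitotic regulators (0.162%), ethanol fermentation (2.07%) and mating genes (0.173%), and the highest for small-subunit ribosomal proteins (5.47%) and glycolysis (6.10%).

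Outside the protein-coding genes, 239 non-coding features that overlap no other listed feature were tested. Of these, 18.0% (43) were at least 2-fold higher at 5 h and 10.0% (24) at least 2-fold lower. Among protein-coding genes that likewise overlap no listed feature the shares were 9.12% and 3.98%, and among all those tested 7.09% and 3.07%. These shares were not matched for level. In the lowest level group of protein-coding genes they were 15.2% and 2.06%, and the part of level in the difference was not tested.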

How the results depend on the processing

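With library-size scaling 24.2% of protein-coding genes were lower and 1.53% at least 2-fold lower. Under it 751 genes called lower with TMM were no longer called, 14 turned higher, and no gene called higher lost its call. Some named genes changed sign and were called in the main fit or under the alternative, all under library-size scaling. Their log2 fold changes there were 0.021 for sty1, 0.0064 for tsc1, 0.044 for rho1, 0.11 for ero12, 0.022 for bgs1, 0.17 for bgs4 and 0.16 for mcp60. Over the other alternatives the 4 shares stayed within 1.5 times their values: DESeq2 gave 38.2% higher, 40.4% lower, 6.94% at least 2-fold higher and 3.18% lower, and genes that overlap no listed feature gave 39.7%, 39.8%, 9.12% and 3.98%. Leaving out each sample in turn gave 37.6% to 39% higher, 37.9% to 39.1% lower, 7.05% to 7.25% at least 2-fold higher and 2.97% to 3.30% lower. Of the named genes' values over all alternatives, 5076 counted as the same, 50 lost the call, 19 gained it and 7 changed sign. A change of sign was counted only where the gene was called in the main fit or under the alternative. Otherwise the value stood among the 5076. Of the list medians 771 moved by less than the replicate spread and 130 by more. The moves were uneven: all 53 medians moved by more under library-size scaling. With only genes that overlap no listed feature, 32 moved by more and 21 by less.

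Same-numbered samples did not deviate together (r of -0.10, 0.036, 0.019 and 0.019). A shared origin that left no common deviation would not show in these values, so they do not settle whether the numbers pair the samples. With a replicate block 39.8% of genes were higher, 39.9% lower, 7.09% at least 2-fold higher and 3.09% lower. The depth limits genes under about 0.1 CPM.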

Other observations

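The following genes were chosen after their values were seen and carry no test. The glyoxalase III family, to which hsp3102† belongs, was higher at 5 h in all 5 members, by unequal amounts. Hsp3101† had 128 ± 5.88 CPM at 5 h, against 15.1 ± 1.097 CPM in the controls (SD, n = 4 each, log2 fold change 3.08 ± 0.053). Hsp3104† had 349.6 ± 13.5 CPM at 5 h, against 37.9 ± 0.7995 CPM in the controls (log2 fold change 3.21 ± 0.061). Hsp3103 and hsp3105† had log2 fold changes of 1.47 ± 0.070 and 0.41 ± 0.092. Another catechol O-methyltransferase gene, cmt1, had 396 ± 36.3 CPM at 5 h, against 41.03 ± 3.51 CPM in the controls (log2 fold change 3.27 ± 0.087). Arginase, car1, which opens arginine breakdown, had 510.3 ± 25.5 CPM at 5 h, against 49.6 ± 5.27 CPM in the controls (log2 fold change 3.36 ± 0.074), while the next enzyme of that path, car2†, had 1528 ± 171 CPM at 5 h, against 1671 ± 96.3 CPM in the controls (-0.13 ± 0.073). The galactose genes of the run on chromosome II had log2 fold changes of 2.25 ± 0.060 for gal10†, 1.34 ± 0.085 for gal7 and 1.01 ± 0.042 for gal1†.

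Along sulfate assimilation most steps were lower at 5 h, as sua1† was. Sulfite reductase, sir1, had 375 ± 17.4 CPM at 5 h, against 1320.2 ± 99.96 CPM in the controls (log2 fold change -1.81 ± 0.065), and its flavoprotein partner met10† had 272 ± 6.91 CPM at 5 h, against 506 ± 56.4 CPM in the controls (-0.895 ± 0.074). Adenylyl-sulfate kinase, met14†, had a log2 fold change of -1.15 ± 0.056 and the methyltransferase met1, which makes the siroheme of sulfite reductase, of -0.75 ± 0.056. The reductase met16 in the middle of the path had 113 ± 4.19 CPM at 5 h, against 109 ± 4.98 CPM in the controls (0.05 ± 0.041). S-adenosylmethionine synthetase, sam1, downstream of methionine, had 624 ± 69.1 CPM at 5 h, against 1685 ± 134 CPM in the controls (-1.43 ± 0.096). Heme synthesis was not lower as a whole. The gene of the third enzyme, hem3†, had 49.4 ± 4.098 CPM at 5 h, against 198 ± 8.46 CPM in the controls, hem2† and hem13† had log2 fold changes of -0.44 ± 0.065 and -0.58 ± 0.057, hem1† and hem12 of -0.07 ± 0.059 and 0.11 ± 0.043, and the last steps hem14† and hem15† of 0.33 ± 0.059 and 0.398 ± 0.043.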
